A study of Mus musculus with 12 samples.

Results

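Creg2, Stk32a, Atp6ap1l, Tagln3, Thsd7b, Fyb2, Ptk2b and Gab2 are 8 genes about whose role in sensory neurons little is known, out of 55416 gene identifiers counted in trigeminal ganglia of adult mice. They were picked for their shift between iKO and control libraries of this series, so their difference between these groups is given as a description. Where the fit over all genes calls them in this contrast, the calls are counted and nothing is read from them. All 8 were found by symbol, and all 8 passed the filter on low counts that left 16637 genes for testing. The series sequenced polyadenylated RNA from trigeminal ganglia, the clusters of sensory nerve cells that serve the face, of 12 C57Bl6 mice 1 month after injection. The 6 iKO animals (3 female, 3 male) carried the Rosa26 CreERT2 allele and floxed copies of Prdm12 on both chromosomes (Fl/Fl), and received tamoxifen, which lets CreERT2 enter the nucleus and delete the floxed part. The 6 controls (2 female, 4 male) differed among themselves. Control 1 carried CreERT2 and a single floxed allele (Fl/+), controls 2 and 3 carried a single floxed allele without Cre, and control 4 carried CreERT2 without a floxed allele, all with tamoxifen. Controls 5 and 6 had the genotype of the iKO animals and received corn oil. Within replicates 5 and 6, iKO and control thus differed in the agent, and within replicates 1 to 4 in the genotype. All 4 libraries of replicates 5 and 6 were from males, whereas replicates 1 to 4 held 3 females and 1 male among iKO and 2 females and 2 males among controls. The Rosa26 locus is active in most cell types, so these alleles do not restrict deletion to neurons. Labels do not say what a shared replicate number means.

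Prdm12 encodes a zinc finger protein of the PRDM family that represses transcription together with the histone methyltransferase G9a. In the embryo it is required for nociceptors, the neurons that sense painful stimuli, and it stays on in these neurons in the adult. The 8 genes fall into signalling proteins, proteins of the secretory pathway and membrane, and a cytoskeletal protein. Ptk2b encodes the calcium-activated tyrosine kinase Pyk2, a relative of focal adhesion kinase, and Stk32a a serine/threonine kinase with few known substrates. Gab2 and Fyb2 encode adaptors, which have no catalytic activity and bring other signalling proteins together.

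Total counts per library ran from 13207526 to 24178970. Levels are CPM, reads of a gene scaled to a common library size, after scaling by the trimmed mean of M-values (TMM), and 3 counts, taken as the limit of detection, came to between 0.124 and 0.227 CPM. Prdm12 itself averaged 16.8 ± 1.97 CPM in iKO and 106 ± 28.4 CPM in controls (SD, n = 6 each). It was at 88.2 CPM in control 1 and at 56.9 CPM in control 6, the lowest control, against 118 to 133 CPM in the other controls. The summed level of 20 general sensory neuron markers ran from 20600 to 24700 CPM in iKO and from 19800 to 24300 CPM in controls. Control 6 had the highest summed level of brain neuron and oligodendrocyte markers, with 2370 CPM, where iKO libraries had 222 to 841 CPM, and the highest of lymphocyte markers, with 17.4 CPM, where iKO libraries had 6.33 to 8.12 CPM. iKO 5 had the highest summed level of skeletal muscle markers, with 1000 CPM. In bulk tissue, fewer cells of a type and less RNA per cell cannot be told apart.

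A promoter was listed for 4 of these genes, Creg2, Fyb2, Thsd7b and Tagln3, in the RefSeq table (GRCm38.p6, where the reads were aligned to GRCm39). The 250 bases before the transcription start are shown 5′ to 3′ on the gene's strand because 2 of them, Creg2 and Fyb2, were lower in iKO and 2, Thsd7b and Tagln3, were higher. Capitals mark matches, on either strand, to the E-box CANNTG, which basic helix-loop-helix factors bind, the TATA box TATAAA, the CAAT box CCAAT, the GC box GGGCGG, the cyclic AMP response element TGACGTCA or the AP-1 site TGANTCA. No match overlapped another motif. Creg2 lies at chr1:39651183-39651432 on the minus strand, Fyb2 at chr4:104913311-104913560 on the plus strand, Thsd7b at chr1:129273054-129273303 on the plus strand and Tagln3 at chr16:45724532-45724781 on the minus strand.
Creg2: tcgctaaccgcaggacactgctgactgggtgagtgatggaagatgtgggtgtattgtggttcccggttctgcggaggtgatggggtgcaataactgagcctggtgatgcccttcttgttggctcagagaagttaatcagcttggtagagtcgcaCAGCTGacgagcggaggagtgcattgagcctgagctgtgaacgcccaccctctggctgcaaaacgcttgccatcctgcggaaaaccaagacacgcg
Fyb2: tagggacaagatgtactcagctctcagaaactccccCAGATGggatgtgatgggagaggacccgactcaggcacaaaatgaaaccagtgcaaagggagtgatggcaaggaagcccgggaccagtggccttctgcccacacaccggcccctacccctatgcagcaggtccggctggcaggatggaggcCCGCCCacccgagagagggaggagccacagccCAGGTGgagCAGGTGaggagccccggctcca
Thsd7b: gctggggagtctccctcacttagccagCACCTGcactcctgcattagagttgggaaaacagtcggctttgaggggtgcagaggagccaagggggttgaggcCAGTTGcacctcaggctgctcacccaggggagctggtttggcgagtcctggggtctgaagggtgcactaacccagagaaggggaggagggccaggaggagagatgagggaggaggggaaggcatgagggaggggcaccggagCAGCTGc
Tagln3: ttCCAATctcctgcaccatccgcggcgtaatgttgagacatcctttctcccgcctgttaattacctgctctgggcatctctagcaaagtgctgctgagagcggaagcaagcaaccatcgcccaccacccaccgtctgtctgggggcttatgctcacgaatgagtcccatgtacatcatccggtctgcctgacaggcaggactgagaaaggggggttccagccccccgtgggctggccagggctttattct

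The Creg2 window held 1 CANNTG match, the Fyb2 window 3 and 1 GGGCGG match, the Thsd7b window 3 CANNTG matches and the Tagln3 window 1 CCAAT match. Among 32851 promoter windows of the same length, 66.2% held CANNTG, 33.8% CCAAT and 32.7% GGGCGG. None of the 4 windows held the TATA box, the cyclic AMP response element or the AP-1 site, which were in 12.4%, 1.55% and 6.75% of all windows. In Thsd7b a CANNTG match began 7 bases before the start, and in Fyb2 the nearest began 22 bases before it. The windows of Thsd7b and Fyb2 were 62.8% G or C, against a median of 52.4% over all windows, and held 3 and 7 CpG dinucleotides, against a median of 6. Creg2 had 56.0% and 12 CpG, and Tagln3 57.2% and 10 CpG. The pair that was lower in iKO and the pair that was higher therefore shared no motif that set them apart among those searched. A match is a run of letters and does not show that a factor binds there.

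Creg2 encodes a secreted glycoprotein made mainly in the brain. It had 14.8, 17.6 and 22.2 CPM as the lowest, median and highest value in iKO, against 33.7, 44.8 and 49.2 CPM in controls. The highest iKO library was iKO 1 and the lowest control was control 6, the control with the least Prdm12, and the groups did not overlap. The mean of 18.3 ± 2.7 CPM in iKO was 41.8% of the 43.8 ± 5.57 CPM in controls (SD, n = 6 each). The fitted log2 fold change was -1.28 ± 0.11 (SE, edgeR), the largest of the 8 in size. An antisense gene, D930019O06Rik, overlaps Creg2 over 919 bases of exon in the GRCm38 annotation, and these libraries do not mark strand. It was counted 3 to 8 times per iKO library and 6 to 17 times per control, where no library had fewer than 222 counts of Creg2.

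Thsd7b encodes a membrane protein with thrombospondin type 1 repeats. Its lowest, median and highest values were 21.6, 25.7 and 27.5 CPM in iKO, against 16.7, 18.6 and 19.6 CPM in controls. Every iKO library was above every control, with iKO 5 the closest. The mean was 25.2 ± 2.07 CPM in iKO and 18.3 ± 1.11 CPM in controls (SD, n = 6 each), and edgeR put the log2 fold change at 0.45 ± 0.065 (SE).

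Atp6ap1l is named for its likeness to Atp6ap1, an accessory subunit of the proton pump that acidifies lysosomes and secretory vesicles. It had 12.5, 14 and 15.6 CPM as the lowest, median and highest value in iKO, against 7.4, 8.52 and 10.9 CPM in controls. The groups did not overlap, and control 1 was the highest control. The mean was 14 ± 1.18 CPM in iKO and 8.75 ± 1.21 CPM in controls (SD, n = 6 each), and edgeR put the log2 fold change at 0.66 ± 0.088 (SE), the largest of the genes that were higher.

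Tagln3, also called NP25, encodes a neuronal member of the calponin family of actin-binding proteins. Its values were 293, 313 and 332 CPM in iKO, against 253, 259 and 268 CPM in controls, for the lowest, median and highest library. The groups did not overlap, and their spread was small, with a coefficient of variation of 4.23% in iKO and 2.26% in controls. The mean was 312 ± 13.2 CPM in iKO and 260 ± 5.87 CPM in controls (SD, n = 6 each), and edgeR put the log2 fold change at 0.27 ± 0.035 (SE).

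The kinase genes differed in opposite directions. Stk32a had 25.4, 29.4 and 31.1 CPM as the lowest, median and highest value in iKO, against 18.1, 19.3 and 20 CPM in controls. Controls lay close together, and all iKO libraries were above them. The mean was 28.8 ± 2.14 CPM in iKO and 19.2 ± 0.82 CPM in controls (SD, n = 6 each), and edgeR put the log2 fold change at 0.59 ± 0.061 (SE). Ptk2b had 14.5, 18.3 and 19.4 CPM in iKO, against 21.4, 28.3 and 29.6 CPM in controls. Control 1, at 21.4 CPM, was nearer to the iKO libraries than to the other controls, which had at least 26.4 CPM, and iKO 1 had the lowest level of all 12. The mean was 17.3 ± 2.04 CPM in iKO and 27.2 ± 3.1 CPM in controls (SD, n = 6 each), and edgeR put the log2 fold change at -0.64 ± 0.097 (SE).

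Both adaptor genes were lower in iKO. Fyb2, a relative of the T cell adaptor Fyb, was the least abundant of the 8, with 12 to 40 counts per library. It had 0.526, 0.895 and 1.28 CPM as the lowest, median and highest value in iKO, against 1.51, 2.08 and 2.22 CPM in controls, without overlap. The mean was 0.912 ± 0.32 CPM in iKO and 1.98 ± 0.272 CPM in controls (SD, n = 6 each), and edgeR put the log2 fold change at -1.18 ± 0.23 (SE). The coefficient of variation among iKO libraries was 35%, where counting error alone would give 25.2%. Gab2, which couples receptor tyrosine kinases to the phosphatase Shp2 and to phosphoinositide 3-kinase, had 45.8, 49.6 and 53.2 CPM in iKO, against 53.6, 58.4 and 65.2 CPM in controls. The highest iKO library, iKO 4, and the lowest control, control 1, were 0.786% apart. The mean was 49.7 ± 2.99 CPM in iKO and 58.5 ± 3.91 CPM in controls (SD, n = 6 each), and edgeR put the log2 fold change at -0.23 ± 0.056 (SE).

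**Figure D1:**
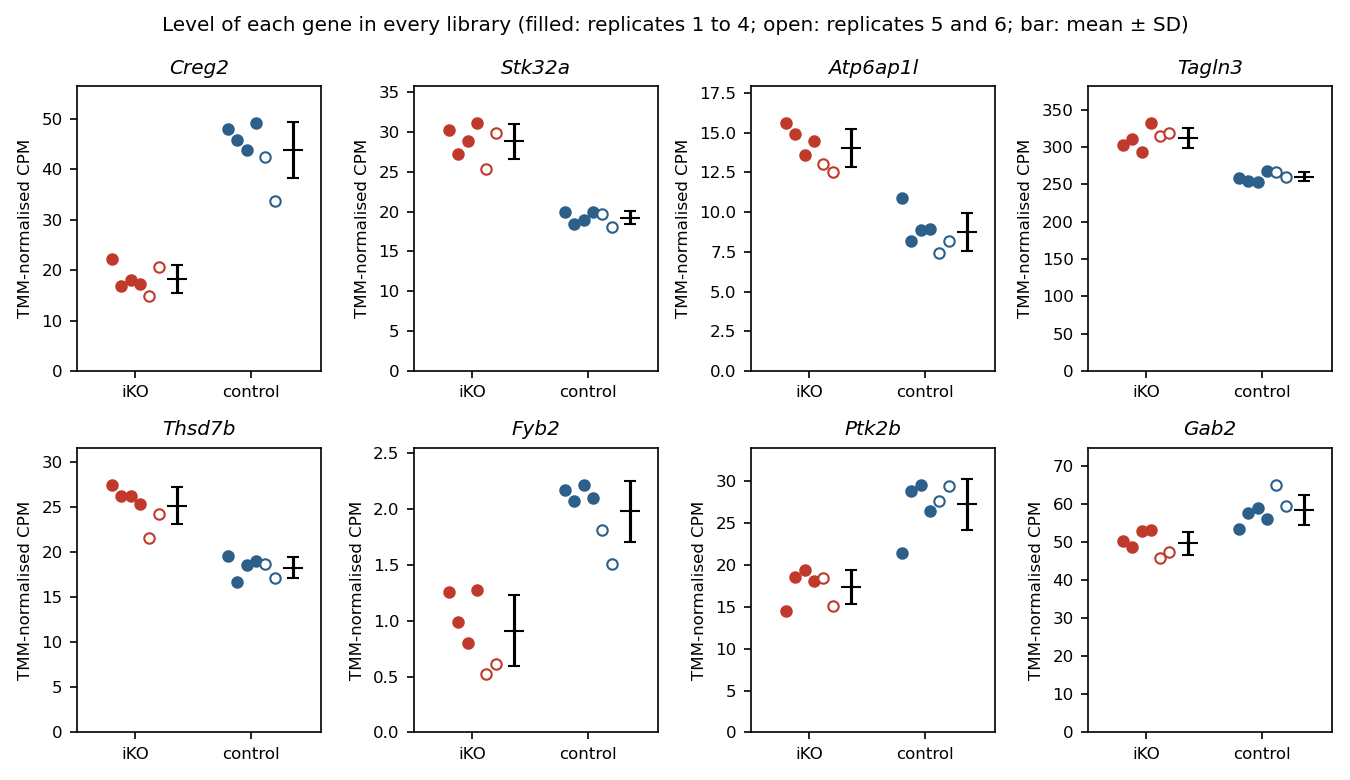
TMM-normalised CPM of each gene in every library, iKO on the left and control on the right of each panel; filled points are replicates 1 to 4, open points replicates 5 and 6, and the bar is the mean ± SD of 6 libraries. The groups do not overlap in any panel, and the gap is narrowest for Gab2, where the highest iKO library has 53.2 CPM and the lowest control 53.6 CPM.

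All 8 genes thus separated the groups in CPM, 4 with every iKO library above every control and 4 below. Over all 16637 genes, 1.2% separated the groups in this way, 0.679% with every iKO library above and 0.523% with every iKO library below. At an adjusted p under 0.05 in edgeR's quasi-likelihood test with sex as a covariate, 63 genes or 0.379% were called, 0.174% higher and 0.204% lower, and 7 of the 8, all but Gab2, were among them. In tamoxifen-injected animals alone 3 of the 8 were called, without Tagln3, Thsd7b, Fyb2 and Ptk2b. With each library left out in turn, Fyb2 lost its call in 10 of 12 fits, all but those without iKO 4 or control 6, and Ptk2b in the fit without control 2. Since the 8 were chosen by this contrast, nothing is read from these counts. The 63 became 23 to 35 without control 1, 2, 3 or 5 or without iKO 1, 5 or 6, and the other libraries moved it by less than 1.5 times.

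In a level per kilobase of exon in the GENCODE M21 annotation, which allows genes to be compared, Tagln3 had 252 ± 10.6 CPM per kb in iKO and 210 ± 4.73 in controls (SD, n = 6 each), far above the rest. In controls Gab2 followed with 9.49 ± 0.634 CPM per kb, then Creg2 with 7.19 ± 0.914 and Atp6ap1l with 6.83 ± 0.948, which did not differ beyond their spread. Ptk2b had 3.68 ± 0.419, Stk32a 2.32 ± 0.0992, Thsd7b 1.5 ± 0.0915 and Fyb2 0.631 ± 0.0869 CPM per kb. In iKO the order by level was Tagln3, Atp6ap1l (11 ± 0.924 CPM per kb), Gab2 (8.06 ± 0.484), Stk32a (3.48 ± 0.259), Creg2 (3 ± 0.444), Ptk2b (2.34 ± 0.276), Thsd7b (2.07 ± 0.17) and Fyb2 (0.291 ± 0.102). There Ptk2b and Thsd7b differed by less than the SD of Ptk2b.

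The difference between iKO and control had the same direction in both replicate sets for all 8 genes. As the groups did not overlap in any of the 8, this direction was all but fixed, and nothing is read from it. In replicates 5 and 6, where animals of the same genotype got tamoxifen or corn oil, the log2 fold change of iKO over control was -1.10 for Creg2, -1.53 for Fyb2, -0.77 for Ptk2b and -0.42 for Gab2. In replicates 1 to 4, where all got tamoxifen, it was -1.34 for Creg2, -0.95 for Fyb2, -0.56 for Ptk2b and -0.13 for Gab2. For the higher genes it was 0.72 in replicates 5 and 6 and 0.65 in replicates 1 to 4 for Atp6ap1l, and for Stk32a 0.55 in replicates 5 and 6 and 0.62 in replicates 1 to 4. It was 0.36 in replicates 5 and 6 and 0.51 in replicates 1 to 4 for Thsd7b, and 0.27 in replicates 5 and 6 and 0.28 in replicates 1 to 4 for Tagln3. Across all genes, 1 gene or 0.00601%, higher in iKO, was called in replicates 5 and 6 and 19 or 0.114% in replicates 1 to 4 (0.0541% higher, 0.0601% lower). Prdm12 itself, at -2.49 in replicates 5 and 6, was not called there (edgeR adjusted p = 0.0509). An unadjusted p under 0.05 was reached by 7.87% of genes in replicates 5 and 6 and by 7.93% in replicates 1 to 4. Of the 8, none was called in replicates 5 and 6, and Creg2, Stk32a and Thsd7b were called in replicates 1 to 4, counts from which nothing is read. With each of 12 libraries left out in turn, Thsd7b lost that call in 11 fits, Stk32a in 5 and Creg2 in 1, that without iKO 4. In replicates 5 and 6, limma-voom called 0 of the 8 and DESeq2 6.

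**Figure D2:**
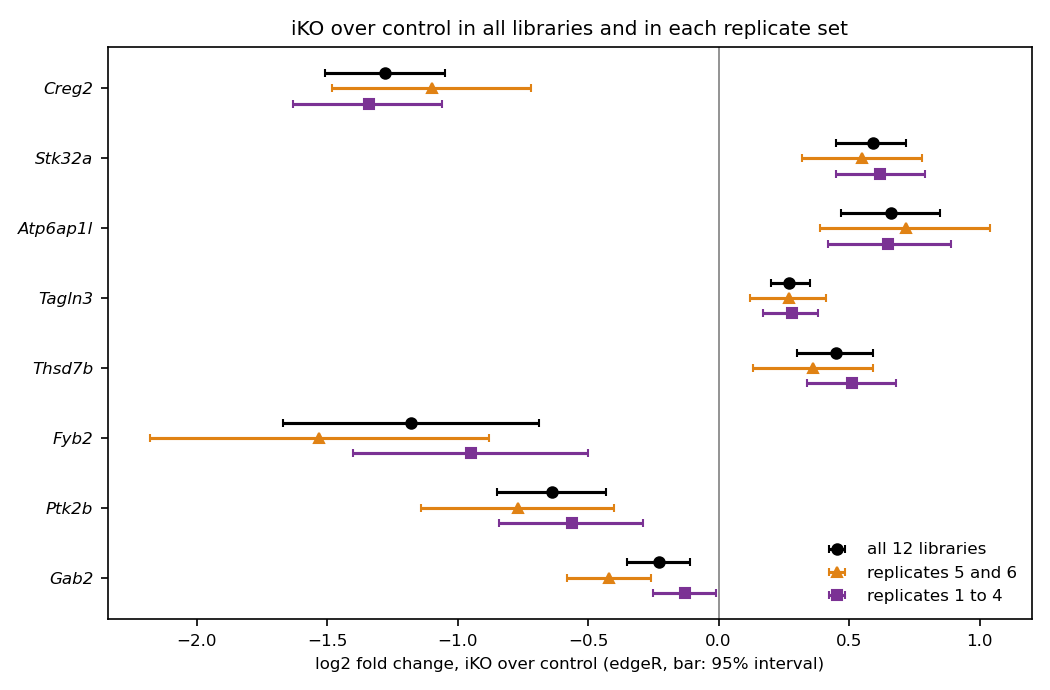
Log2 fold change of iKO over control from edgeR for each gene in all 12 libraries (circles), replicates 5 and 6 (triangles) and replicates 1 to 4 (squares); bars are 95% intervals. The 3 estimates of a gene share a sign in every row, and those of Gab2 lie furthest apart relative to their intervals, at -0.42 in replicates 5 and 6 and -0.13 in replicates 1 to 4.

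Whether the effect differed between the replicate sets was tested directly, as this difference was not itself used to choose the genes. A choice by shift between groups can favour genes with little spread within them. The tests of sets, controls and sex, and the correlations with Prdm12, may thus be tilted towards no difference. A test that did not pass does not exclude one. None of the 8 passed. Gab2 came closest, with a difference of -0.29 in log2 fold change, replicates 5 and 6 minus 1 to 4 (95% interval -0.50 to -0.09; edgeR adjusted p = 1). Its mean was 46.6 CPM in iKO and 62.4 CPM in controls within replicates 5 and 6, against 51.3 ± 2.1 CPM in iKO and 56.6 ± 2.34 CPM in controls within replicates 1 to 4 (SD, n = 4 each). Fyb2 had a difference of -0.57 (95% interval -1.36 to 0.22) and Creg2 one of 0.24 (-0.23 to 0.71), so the interval of Fyb2 reached further below 0 and that of Creg2 further above it. Tagln3 was bounded most closely, between -0.19 and 0.17. The sets also differ in sex, and the fit has a term for sex in the level but none for sex in the effect. Within the males of replicates 1 to 4, Gab2 had 53.2 CPM in iKO 4 against 59.1 and 56.1 CPM in controls 3 and 4. Over all genes 0 passed in edgeR (0%), 568 had an unadjusted p under 0.05 (3.41%), limma-voom called 0 and DESeq2 5.

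The level within the control group was compared in the same fit. Controls 5 and 6 differ from controls 1 to 4 in genotype and agent together, and these cannot be told apart. None of the 8 passed. Fyb2 had the lowest value, a log2 difference of -0.45 for controls 5 and 6 minus controls 1 to 4 (95% interval -1.02 to 0.12, edgeR adjusted p = 0.726), with 1.81 and 1.51 CPM in controls 5 and 6 against 2.07 to 2.22 CPM in controls 1 to 4. Gab2 had the highest, 0.11 (-0.04 to 0.26, edgeR adjusted p = 0.753), with 65.2 and 59.5 CPM in controls 5 and 6 against 53.6 to 59.1 CPM in controls 1 to 4. Over all genes 0 passed in edgeR (0%), 1312 had an unadjusted p under 0.05 (7.89%), limma-voom called 0 and DESeq2 3. Leaving out control 5 or 6 leaves 1 library on that side, so counts from those fits are not given.

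Sex made no difference that passed for any of the 8. In males minus females the log2 difference in level ran from -0.25 for Fyb2 (95% interval -0.74 to 0.24) to 0.07 for Ptk2b (-0.15 to 0.28), with edgeR adjusted p-values of at least 0.539, where 18 genes or 0.108% passed (0.0301% higher in males, 0.0781% lower) and 10.2% had an unadjusted p under 0.05. The difference of the iKO effect, male minus female, ran from -0.20 for Fyb2 (95% interval -1.23 to 0.82) to 0.06 for Tagln3 (-0.10 to 0.22), with edgeR adjusted p = 1 for each. Over all genes 0 passed in edgeR (0%), 318 had an unadjusted p under 0.05 (1.91%), and limma-voom and DESeq2 also called 0.

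**Figure D3:**
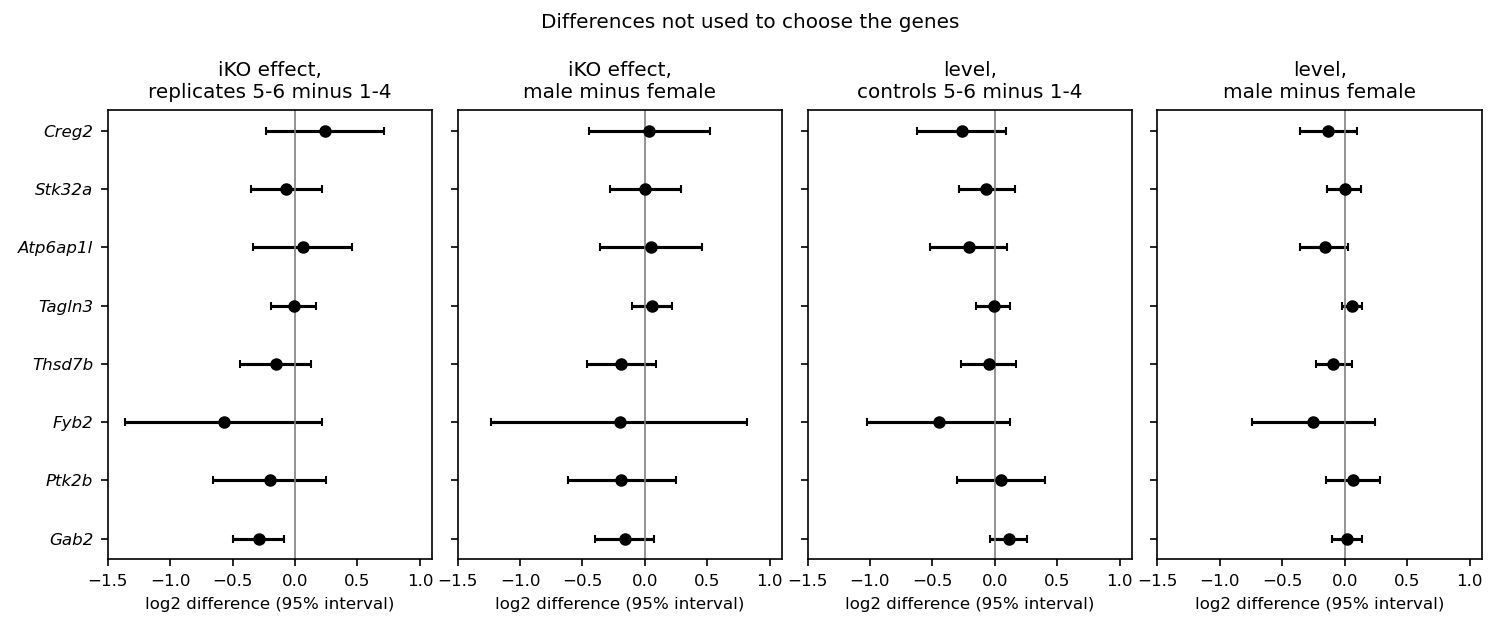
Log2 differences from edgeR with 95% intervals for the comparisons not themselves used to choose the genes. They are the iKO effect in replicates 5 and 6 minus that in replicates 1 to 4, and the iKO effect in males minus females. The others are the level in controls 5 and 6 minus controls 1 to 4, and the level in males minus females. A choice by shift can favour genes with little spread within groups, which would tilt these comparisons towards no difference. Intervals cover 0 except that of Gab2 in the first panel, -0.50 to -0.09, and those of Fyb2 are the widest.

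Among the 6 controls Prdm12 spanned 56.9 to 133 CPM, and 0 of the 8 correlations passed the threshold. Pearson's r of log2(CPM + 1) with Prdm12 ran from -0.19 for Atp6ap1l to 0.73 for Creg2, and Spearman's rho from -0.2 to 0.54. For Creg2, r = 0.73 had p = 0.272 by exact permutation over all 720 pairings (two-sided), and rho = 0.2 had p = 0.714 in the same exact test. Adjusted over the 8 relations, the exact permutation p was 0.771 for Creg2's r and at least 0.771 for every other r, and at least 0.803 for every rho. Without controls 1 and 6, the controls farthest from the median of Prdm12, 4 controls were left, with 118 to 133 CPM of Prdm12. Over these r was -0.4 for Creg2 and -0.91 for Fyb2. With so few libraries and so narrow a span, r over these 4 controls was not tested, and nothing is read from it. Over 6 controls r of Fyb2 was 0.64 (exact permutation p = 0.353). The positive values of Creg2 and Fyb2 rest on control 6, the control with the least Prdm12. In control 1, with 88.2 CPM of Prdm12, Creg2 was at 48 CPM and Fyb2 at 2.17 CPM, near their highest control levels. For Stk32a r was 0.52 over all controls (exact permutation p = 0.269) and 0.67 without controls 1 and 6, but -0.26 without control 6 alone and -0.54 when scaled to sensory neuron genes. In control 6 Creg2, Stk32a and Fyb2 were at their lowest control level, as was the summed level of sensory neuron markers, at 19800 CPM. Its brain, lymphocyte, muscle, Schwann cell, satellite glia and fibroblast markers were the highest of the controls. The part of those cell types in these values was not tested.

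**Figure D4:**
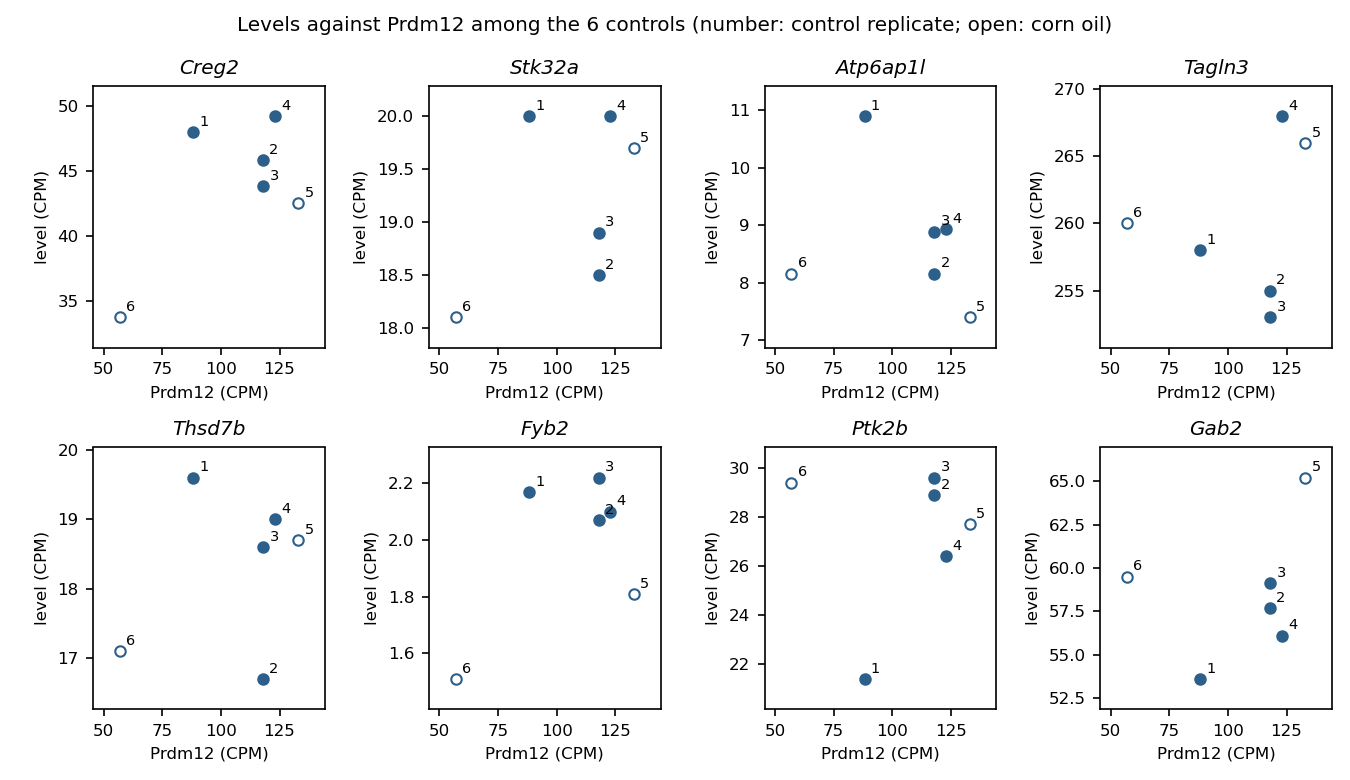
Level of each gene against the level of Prdm12 among the 6 controls, both in TMM-normalised CPM; numbers are control replicates and open points are the corn oil controls. Control 6, with 56.9 CPM of Prdm12, has the lowest Creg2 (33.7 CPM) and Fyb2 (1.51 CPM) of the controls, and control 1 stands apart for Ptk2b (21.4 CPM) and Atp6ap1l (10.9 CPM).

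Control 1 was the only control with Cre, a floxed allele and tamoxifen together. In 4 of the 8 genes, Atp6ap1l, Thsd7b, Ptk2b and Gab2, it was the control nearest to the iKO mean. It was so in 18.6% of all 16637 genes and in 12.7% of the 55 other genes called between iKO and control, without Prdm12. Control 6 was nearest for Creg2 and Fyb2, and control 4 for Stk32a and Tagln3. With 1 library of this genotype the position of control 1 was not tested.

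Relatives and partners of the 8 genes, from lists of 62 genes in all, were counted in the same contrast. Of 61 that passed the filter on low counts, 0 rose and 0 fell at an adjusted p under 0.05 in edgeR, where 0.379% of all genes were called, and 9 had an unadjusted p under 0.05, where 10.9% of all genes had. Creg1, the paralogue of Creg2 that encodes a lysosomal glycoprotein, had 34.2 ± 2.08 CPM in iKO and 33.5 ± 2.66 CPM in controls (SD, n = 6 each), a log2 fold change of 0.03 (95% interval -0.11 to 0.16, edgeR adjusted p = 0.914). Among the paralogues of Stk32a, Stk32c had 48.1 ± 5.7 CPM in iKO and 54.8 ± 5.78 CPM in controls, or -0.17 on the log2 scale (edgeR adjusted p = 0.466). Stk32b, near 1 CPM in both groups, differed by -0.35 on the log2 scale (edgeR adjusted p = 0.751).

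The 16 subunits and accessory subunits of the vacuolar ATPase, the pump to which Atp6ap1 belongs, had a median log2 fold change of 0.02, against 0 over all genes, with Atp6v0c at 0.18 and Atp6v1g1 at 0.10. In the calponin family, 4 genes were measured with a median of -0.08, among them Tagln2 at -0.15 and Tagln at 0.36. The 11 genes of thrombospondin type 1 repeat proteins and thrombospondins had a median of -0.10. The members with the smallest p were Thbs2, an extracellular matrix protein gene, with 15.3 ± 3.18 CPM in iKO and 21.6 ± 3.6 CPM in controls (SD, n = 6 each; log2 fold change -0.51, edgeR adjusted p = 0.184), and Thsd4 (-0.49, edgeR adjusted p = 0.194). Markers of fibroblasts and meninges, which also make matrix proteins, had a summed level of 1420 to 2650 CPM in iKO and 2050 to 3660 CPM in controls, with 2 of 10 called lower, the transporter genes Slc22a6 (5.74 ± 1.49 CPM in iKO and 11.9 ± 3.24 CPM in controls) and Slc13a4 (18.8 ± 4.43 CPM in iKO and 34.7 ± 7.26 CPM in controls). The widest gap in CPM was in Ptgds, not called, with 691 ± 134 CPM in iKO and 1350 ± 395 CPM in controls. The median log2 fold change of this list was -0.29. Igfbp2 was at -0.96 (edgeR adjusted p = 0.0511) and Pdgfra at -0.31, neither called. Matrix genes of the list differed less than Slc22a6, Slc13a4 and Ptgds on the log2 scale, and none was called. Values were -0.13 for Col1a1, -0.10 for Col1a2, 0.03 for Col3a1, -0.05 for Lum and -0.28 for Dcn (edgeR adjusted p = 0.0823). The part of fibroblasts and meninges in these values was not tested.

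Around Ptk2b, 11 genes of focal adhesion kinase signalling had a median log2 fold change of 0, including the scaffolds Pxn at 0.14 and Tgfb1i1 at -0.18. Around Gab2, 10 adaptors and partners had a median of -0.03, with Pik3r1, the regulatory subunit of phosphoinositide 3-kinase, at 0.10 and Shc1 at 0.13. Around Fyb2, 6 adaptors had a median of -0.09, with Fyb at -0.32 and Lcp2 at -0.13. Fyb, Lcp2 and Ptk2b are also made by immune cells. Macrophage markers had a summed level of 227 to 371 CPM in iKO and 296 to 451 CPM in controls, with 0 of 10 called, and lymphocyte markers 6.33 to 8.12 CPM in iKO and 6.8 to 17.4 CPM in controls, with 0 of 7 measured called. The median log2 fold change was -0.30 for macrophage and -0.50 for lymphocyte markers. Their part in the lower levels of Fyb2 and Ptk2b was not tested.

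**Figure D5:**
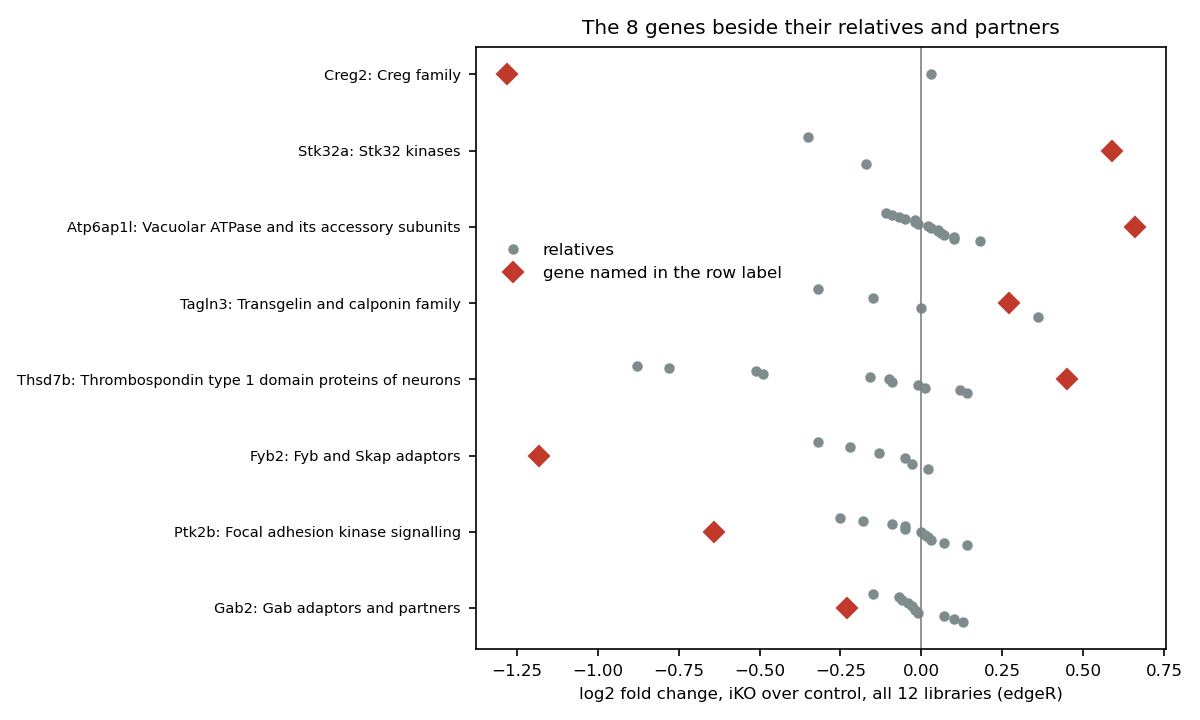
Log2 fold change of iKO over control in all 12 libraries for each of the 8 genes (diamonds) and for the measured members of its list of relatives and partners (circles). The relatives of Creg2, Stk32a and the vacuolar ATPase lie between -0.35 and 0.18, with Creg2 at -1.28, Stk32a at 0.59 and Atp6ap1l at 0.66. In the rows of Tagln3 (0.27) and Thsd7b (0.45) some relatives lie further from 0, among them Tagln at 0.36 and Thbs2 at -0.51. In the other rows none does. The 8 genes were chosen by this contrast and the relatives were not, so nothing is read from these distances.

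The remaining marker lists showed 1 call, and no marker of any list was at 0 in every library. Myelinating Schwann cell markers had a median log2 fold change of 0.16, with 1 of 12 called higher, the myelin gene Pmp22, with 2380 ± 164 CPM in iKO and 1870 ± 147 CPM in controls (SD, n = 6 each). Satellite glia had a median of -0.08 with 0 of 10 called, and sensory neurons a median of 0 with 0 of 20 called. Skeletal muscle markers had a median of 1.25 with 0 of 10 called, and brain neuron and oligodendrocyte markers one of -0.99 with 0 of 8 measured called. When libraries were scaled to the summed counts of the sensory neuron markers in place of TMM, the log2 fold changes of the 8 genes were -1.28 for Creg2, 0.57 for Stk32a, 0.64 for Atp6ap1l, 0.26 for Tagln3, 0.44 for Thsd7b, -1.20 for Fyb2, -0.65 for Ptk2b and -0.25 for Gab2, and Tagln3 was no longer called. Without control 6, iKO 3 and iKO 5, libraries chosen after the data were seen for their brain or muscle markers, they were -1.25 for Creg2, 0.62 for Stk32a, 0.69 for Atp6ap1l, 0.29 for Tagln3, 0.48 for Thsd7b, -1.01 for Fyb2, -0.68 for Ptk2b and -0.21 for Gab2, and Fyb2 was no longer called.

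Once the group and sex means were taken out, each gene's remaining variation over the 12 libraries was compared with that of 14027 other named genes that averaged 1 CPM or more. Creg2 was most like Akain1 (Pearson r = 0.926) and Tmem218 (0.923), and Stk32a most like Pde10a (0.919) and the cold-sensing channel gene Trpm8 (0.902). Trpm8 had 99.3 CPM in iKO and 159 CPM in controls, opposite in direction to Stk32a, but did not pass between the groups (edgeR adjusted p = 0.173). Atp6ap1l was most like Pias1 (0.935) and Atrip (0.932), and Tagln3 most like Pdha1 (0.956) and Coq7 (0.946), both genes of mitochondrial metabolism. Thsd7b was most like Arfgap3 (0.962) and the cytoskeletal linker gene Dst (0.959), and Fyb2 most like the endosomal gene Rab5b (0.964) and Ppme1 (0.954). Ptk2b was most like Glyctk (0.933) and Neil1 (0.918), and Gab2 most like Zfp46 (0.897) and Ptprm (0.889). These are the highest of many values over few libraries that also share depth, and none of the genes named was called between iKO and control (edgeR adjusted p of at least 0.173).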

How the data were processed

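Polyadenylated RNA was sequenced from libraries that do not mark strand, per the labels' protocols. GRCm39 was the mouse build, and STAR 2.7.8a, featureCounts 2.0.1 and bcl2fastq 2.20.0.422 were the tools, per the submitters' processing notes. Each deposited file lists the raw counts of 1 library by Ensembl gene. Sources used here give neither the annotation release nor the counting options. Symbols came from tables of GRCm38, and 3333 identifiers, with 0.274% of counts, had none.

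Counts were tested in edgeR 4.0.16 (R 4.3.3): filterByExpr by group, TMM scaling (factors 0.969 to 1.02), quasi-likelihood test, Benjamini-Hochberg adjustment over 16637 genes, threshold 0.05. The fit over all 12 libraries had group and sex. Replicate sets and controls were compared in a fit whose terms were group by replicate set, plus sex, and the sex difference of the effect as an interaction. Intervals are 95%. Correlations used log2(CPM + 1), with a pseudocount of 1. The fits were checked on simulated counts. Alternatives used DESeq2 1.42.0 and limma-voom (limma 3.58.1), other scalings, filters and covariates, and leaving out libraries.

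The members and lists were chosen with earlier results of these data known. The genes named are Prdm12, the 8 members, from each list of relatives those called or else the pair with the smallest p, the called markers, and for each member the 2 genes of most like residual pattern. Also named are the markers of fibroblasts and meninges that were not called. Protein sequences were not analysed here. Nothing in the labels says how the animals were bred or pooled, so p-values measure the spread between these libraries. Chi-square per degree of freedom between libraries of a group was at least 7.16, so no pair was a repeat of the same library. Detection limits cover counting error only.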

Additional observations from a re-analysis of the deposited data

Results flagged for a closer look

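In groups of 6 libraries, 34 sets of values were searched for a library far from the rest, and 3 were found. Chance flags about 1 in 20 such sets. None was a value of the 8 genes or of Prdm12. The summed level of skeletal muscle markers was 1000 CPM in iKO 5, where the next iKO library had 308 CPM. It was 256 CPM in control 6, where the next control had 123 CPM. The summed level of lymphocyte markers was 17.4 CPM in control 6, where the next control had 10.6 CPM.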

How the results depend on the processing

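The log2 fold change of iKO over control kept its sign in all 176 values of the 8 genes over 12 libraries, all 168 in replicates 1 to 4 and all 160 in replicates 5 and 6. As the 8 were chosen by this contrast and their groups did not overlap, a sign could hardly change, and nothing is read from this. The calls of these genes changed with the setting. There were 134 among the 176 values, 49 among the 168 and 13 among the 160, also counting genes that the main fit did not call. The main fit called 7 over 12 libraries, 3 in replicates 1 to 4 and 0 in replicates 5 and 6, so all 13 were gained. Counts over all genes moved too. Over all 12 libraries 63 genes became 138 with no filter on low counts, 332 in DESeq2, 28 in tamoxifen-injected animals alone and 23 to 88 with each library left out. In replicates 1 to 4, 19 became 621 with no filter, 137 in DESeq2, 12 when fitted alone, 5 without control 6, iKO 3 and iKO 5, and 2 (without iKO 4) to 18 with each library left out. In replicates 5 and 6, 1 became 1014 with no filter, 69 in DESeq2, 2 with RLE scaling, with a filter of 1 CPM in 6 libraries or with no sex term, and 1 to 26 (without iKO 6) with each library left out. For the difference between the sets, 0 became 578 with no filter and 5 in DESeq2, and stayed 0 with each library of replicates 1 to 4 left out. For controls 5 and 6 minus controls 1 to 4, 0 became 1136 with no filter, 3 in DESeq2 and 0 to 120 (without control 5). For male minus female, 18 became 33 with no filter, 50 in DESeq2, 9 without control 6, iKO 3 and iKO 5, and 11 to 15 with each library left out. The cause was not tested.

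With each library left out, the difference between sets ran from -0.02 to 0.45 for Creg2, the sex difference of the effect from -0.67 to 0.03 for Fyb2, and male minus female from -0.03 to 0.12 for Ptk2b. The correlation with Prdm12 among controls ran from -0.53 to 0.89 for Creg2, -0.26 to 0.74 for Stk32a, -0.93 to 0.06 for Atp6ap1l, -0.06 to 0.37 for Tagln3, -0.39 to 0.66 for Thsd7b, -0.59 to 0.87 for Fyb2, -0.46 to 0.84 for Ptk2b and -0.20 to 0.79 for Gab2. Scaled to sensory neuron genes it was -0.54 for Stk32a, -0.72 for Tagln3, -0.56 for Thsd7b, -0.35 for Ptk2b and -0.41 for Gab2. None passed the threshold.

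Same-numbered libraries did not deviate together in every pair (correlations from -0.41 to 0.363, 4 of 6 over 0.1). This does not exclude a pairing, since cell types that vary between libraries also enter these correlations. The labels do not give a pairing, and the main fits did not use the numbers as one. With the replicate number as a block, 15 genes were called over 12 libraries, 11 of them among the 63, 3 in replicates 1 to 4, 1 in replicates 5 and 6, and 0 in either test of a difference between effects, by set or by sex. The block left 3 of the 7 called members over 12 libraries (not Atp6ap1l, Tagln3, Thsd7b or Fyb2) and 0 of the 3 in replicates 1 to 4. Only the libraries numbered 1 correlated best with their own number. Depth limits Fyb2 most, with as few as 12 counts in a library.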
